A study of Mus musculus with 3 samples.

Results

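The genes described here are 39 genes of mitosis and of the passage from G2 into mitosis, listed by name: mitotic cyclins and kinases, spindle motors, kinetochore and checkpoint proteins, condensin subunits and cytokinesis factors. A gene was read through the probe set, a set of short probes for 1 transcript, whose single gene symbol is that gene. Where a gene had several, the one that was brightest on average was taken. By this rule 38 of the 39 genes were measured, of 18193 genes on the arrays, and no probe set was paired with Ccnb1 alone. The measured genes had 91 probe sets between them.

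The samples were embryoid bodies, clusters of differentiating mouse embryonic stem cells grown in suspension, of strain 129S7/SvEv Brd-Hprt b-m2, collected on day 7. All 3 genotypes carried a human BRCA1 gene, which encodes a tumour suppressor that acts in DNA repair and in cell cycle checkpoints. The RQ bodies carried BRCA1 with R1699Q as the design text has it, while the array's own label reads R1669Q. The MI bodies carried BRCA1 with M1652I, and the WT bodies carried wild-type BRCA1. The sources used here do not say whether the lines kept a working mouse gene or whether each was 1 clone. Each genotype was measured on 1 Affymetrix array, so no difference below has a replicate check or a test, and "higher" and "lower" describe these arrays only.

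Mitotic genes are made in a wave late in the cell cycle. In G2, Cdk1 bound to B-type cyclins drives entry into mitosis, Plk1 and the Aurora kinases build the spindle, and the checkpoint proteins hold back the anaphase-promoting complex (APC/C) until each kinetochore is attached. The APC/C then destroys securin and the cyclins, the chromatids separate, and the cell divides. Because the wave is shared, the summed level of these messages in a population follows how many of its cells are in G2 and mitosis as well as the level per cell. In bulk RNA, fewer such cells and less message per cell cannot be told apart.

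The MI array stood apart from the others for most of these genes. The deposited log2 signal was lowest on the MI array for 30 of the 38 genes (78.9%), against 30.4% of the 11969 genes past the level filter. It was lowest on the RQ array for none of them, against 33.4% of all genes, and on the WT array for 8, against 36.3%. RQ was highest for 22 genes, against 31% of all genes, MI for 1, Pttg1, against 42.6%, and WT for 15, against 26.3%. The level filter asks that a gene's mean over the 3 arrays reach the median of all probe sets (log2 6.31), and all 38 measured genes passed it.

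**Figure D1:**
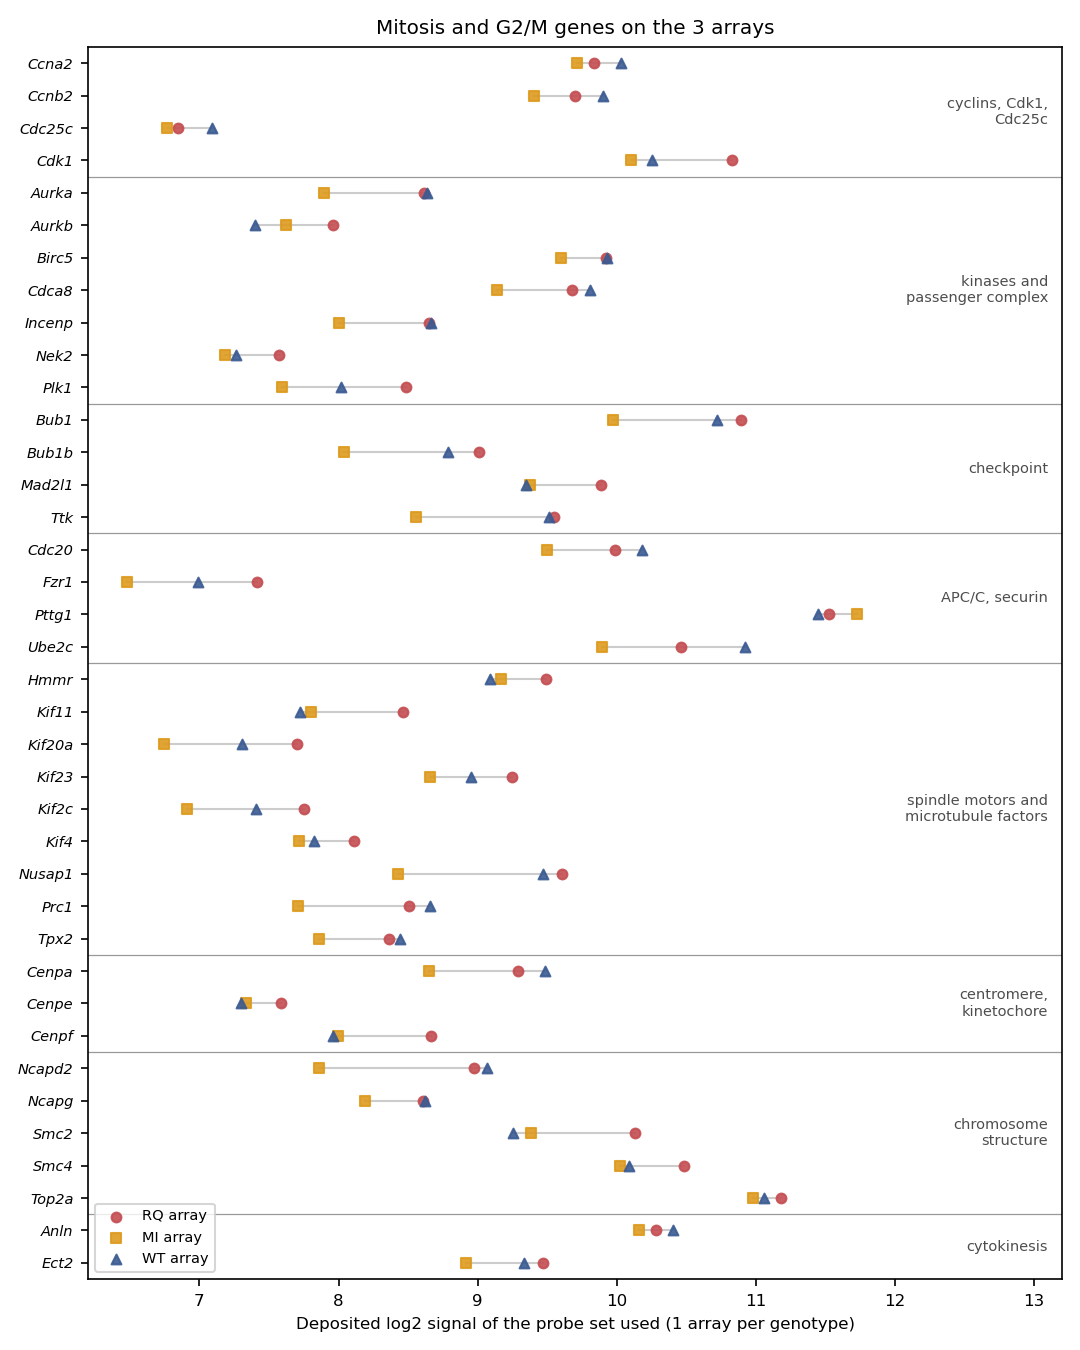
Deposited log2 signal (x axis) of the 38 measured mitosis and G2/M genes (rows, grouped by role) on the RQ, MI and WT arrays, with 1 point per array and no error bars because each genotype has 1 array. The MI square is the leftmost point of 30 rows, and the RQ circle stands to the right of both other points in 22.

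The level of a gene bore on its MI value, and these genes are bright. Their median level was log2 9.05, above that of 90.4% of the genes past the filter. Among all genes with a mean level of 9 to 10, the median MI minus WT difference was -0.35, while it was 0.10 at levels of 6.5 to 7. RQ minus WT showed little of this, with medians of 0.03 and -0.00 at the same levels. Differences that involve MI are therefore given after a lowess correction, which subtracts the trend of all genes with level. The deposited difference of every member stands beside the corrected one in the plot of differences and, for the leading genes, in the text. After an equal correction of each array against the 3-array mean, MI was lowest for 24 of the 38 genes (63.2%), against 34.7% of all genes. A small part of the trend was left by the correction. All genes at levels of 8 to 9 kept a corrected MI minus WT median of -0.07, and those at 9 to 10 one of -0.05. These levels hold 10 and 12 of the members.

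**Figure D2:**
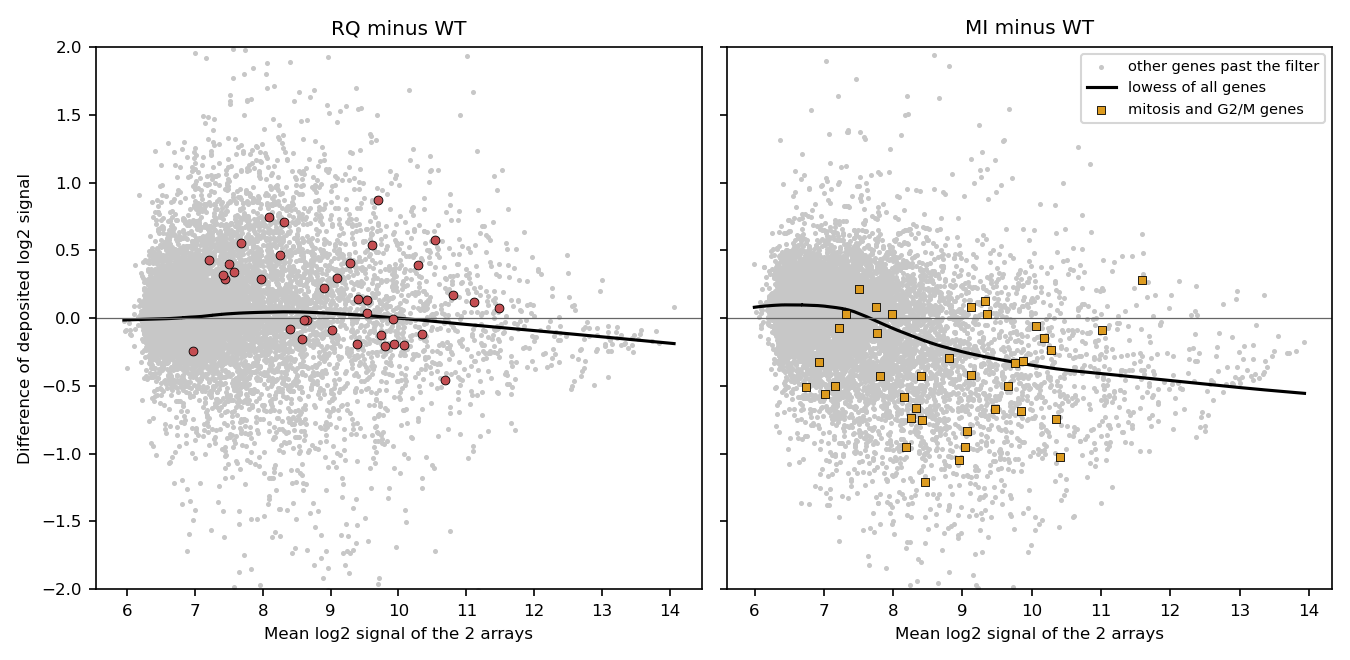
Difference of deposited log2 signal (y axis, shown from -2 to 2) against the mean log2 signal of the 2 arrays (x axis) for RQ minus WT on the left and MI minus WT on the right. Grey points are other genes past the filter, the black line is the lowess trend fitted on all measured genes, and coloured points are the mitosis and G2/M genes. The trend runs below 0 above a level of about 8 in MI minus WT, where the median of all genes at levels of 9 to 10 is -0.35, and most of the coloured points lie below the line.

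The first comparison sets the MI bodies against WT. Part of the mitotic set was lower in MI by more than the level trend, led by Ncapd2, Prc1, Nusap1 and Ttk. The median corrected difference of the 38 genes was -0.23, against -0.00 for all genes, with 26 genes below 0 (68.4%), against 50.7% of all genes. Of the 38, 9 were at least 1.5-fold lower (23.7%), against 6.33% of all genes, and 1 was at least 1.5-fold higher, against 2.71%. Without the correction the median was -0.42, 12 genes were at least 1.5-fold lower, against 8.46% of all genes, and none was 1.5-fold higher, against 1.96%. With the mean of all probe sets of a gene in place of the brightest, the corrected median was -0.11 and 4 genes were at least 1.5-fold lower (10.5%), against 4.39% of all genes. Because the members are bright, a level filter of log2 6.92 was also tried, with the brightest probe set and the correction. Then 9 of 37 members were at least 1.5-fold lower, against 9.81% of all genes past it, and 1 was higher, against 4.25%.

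Ncapd2, a regulatory subunit of condensin I, which compacts mitotic chromosomes, had the lowest value. It read 8.98 on the RQ array, 7.86 on the MI array and 9.07 on the WT array. RQ and WT were thus close while MI stood apart, and the corrected MI minus WT difference was -1.04, a 2.06-fold lower level (-1.21 as deposited). Only 1.68% of all genes had a lower corrected difference. Prc1, which bundles the microtubules of the central spindle in anaphase, read 8.50 in RQ, 7.71 in MI and 8.66 in WT, a corrected difference of -0.84 (-0.95 as deposited). Nusap1, which stabilises microtubules near chromosomes, read 9.60, 8.42 and 9.47 in RQ, MI and WT, and its corrected difference was -0.80 (-1.05 as deposited). For both genes, RQ and WT again lay near each other and above MI.

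Ttk, the kinase also called Mps1 that starts the spindle checkpoint signal, read 9.55 in RQ, 8.56 in MI and 9.51 in WT, and the corrected difference was -0.70 (-0.95 as deposited). Kif20a, a kinesin of cytokinesis, was at -0.65, Ube2c, the ubiquitin-conjugating enzyme of the APC/C, at -0.65, Aurka, the Aurora kinase of the spindle poles, at -0.61, Fzr1, the late activator of the APC/C also called Cdh1, at -0.60 and Bub1b, the checkpoint kinase-like protein BubR1, at -0.59. These 5 values sit just past the 1.5-fold limit (0.58 on the log2 scale), and most of them depend on the correction. As deposited, Ube2c (-1.03), Aurka (-0.74) and Bub1b (-0.75) were past the limit, while Kif20a (-0.56) and Fzr1 (-0.51) fell short of it. With the median of genes of like level subtracted in place of the lowess trend, Aurka (-0.55) and Bub1b (-0.54) fell short. Just short of it were Kif2c, a kinesin that shortens microtubules at the centromere (-0.58), and Cenpa, the histone H3 variant that marks centromeres (-0.57). Pttg1, which encodes securin, the inhibitor of separase, was the exception in the other direction. It read 11.52 in RQ, 11.73 in MI and 11.44 in WT, so its deposited difference was 0.28 and its corrected one 0.72. The call of Pttg1 rests on the correction and on the probe set used.

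The second comparison sets the RQ bodies against WT, and here the mitotic genes differed little. The median difference was 0.14, against 0.01 for all genes, with 23 genes above 0 (60.5%), against 51.9% of all genes. Of the 38, 3 were at least 1.5-fold higher (7.89%), which is near the 6.89% of all genes, and none was 1.5-fold lower, against 4.3%. At a lower limit of 0.32 on the log2 scale, 12 were higher (31.6%), against 16.1% of all genes, and 1 was lower, against 9.77%. The 3 genes past 1.5-fold were Smc2, Kif11 and Cenpf, and with the mean of all probe sets 1 gene was, against 4.69% of all genes. With the level filter raised to log2 6.92, 3 of 37 members were at least 1.5-fold higher, against 10.5% of all genes past it. None was lower, against 6.77%.

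Smc2, an ATPase core subunit of both condensins, read 10.13 in RQ, 9.38 in MI and 9.26 in WT, 1.83-fold higher in RQ than in WT. Kif11, the kinesin Eg5 that pushes the spindle poles apart, read 8.46, 7.80 and 7.72 in RQ, MI and WT, a difference of 0.74. Cenpf, a large kinetochore protein of G2 and mitosis, read 8.67, 8.0 and 7.96, a difference of 0.71. In these genes the MI minus WT differences were 0.12, 0.08 and 0.03 as deposited and 0.41, 0.10 and 0.11 after correction. RQ stood above both other arrays, which is a different order from that of Ncapd2, Prc1, Nusap1 and Ttk. Next came Cdk1 (0.58, 1.49-fold), Aurkb (0.56) and Mad2l1 (0.54). At the low end stood Ube2c, at 10.46 in RQ, 9.89 in MI and 10.92 in WT, whose RQ minus WT difference was -0.45, and Cdc25c, the phosphatase that activates Cdk1, at -0.24.

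The third comparison sets the RQ bodies against the MI bodies. It shares the RQ and MI arrays with the other comparisons, so it is no separate support for them. The corrected median was 0.30, against 0.00 for all genes, and 31 of the 38 genes were above 0 (81.6%), against 50.7% of all genes. At least 1.5-fold higher in RQ were 9 of 38 (23.7%), against 6.68% of all genes, and none was 1.5-fold lower, against 2.47%. As deposited, 37 genes were above 0, against 45.7% of all genes, and 18 were at least 1.5-fold higher (47.4%), against 10.1% of all genes. With the mean of all probe sets, the corrected median was 0.19 and 3 genes were at least 1.5-fold higher (7.89%), against 3.76% of all genes.

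Fzr1 led this comparison, at 7.42 in RQ, 6.48 in MI and 6.99 in WT, with a corrected RQ minus MI difference of 1.01 (0.93 as deposited). Its MI reading lay near the level filter of log2 6.31 and came from its only probe set. Kif20a read 7.70, 6.74 and 7.30 in RQ, MI and WT, a corrected difference of 1.0 (0.96 as deposited). For both genes WT lay between the mutants. Then came Ncapd2 (0.88), Nusap1 (0.87), Kif2c (0.86), Plk1 (0.74), Bub1b (0.72), Ttk (0.68) and Prc1 (0.62). As deposited these 7 ran from 0.80 (Prc1) to 1.18 (Nusap1), and with the median of genes of like level subtracted, Ttk (0.58) and Prc1 (0.57) fell short of 1.5-fold. Plk1, the polo-like kinase that acts from mitotic entry to cytokinesis, read 8.49 in RQ, 7.59 in MI and 8.02 in WT. Lowest after correction were Pttg1 (-0.57) and Anln (-0.25), whose product anillin links actin to the cleavage furrow.

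**Figure D3:**
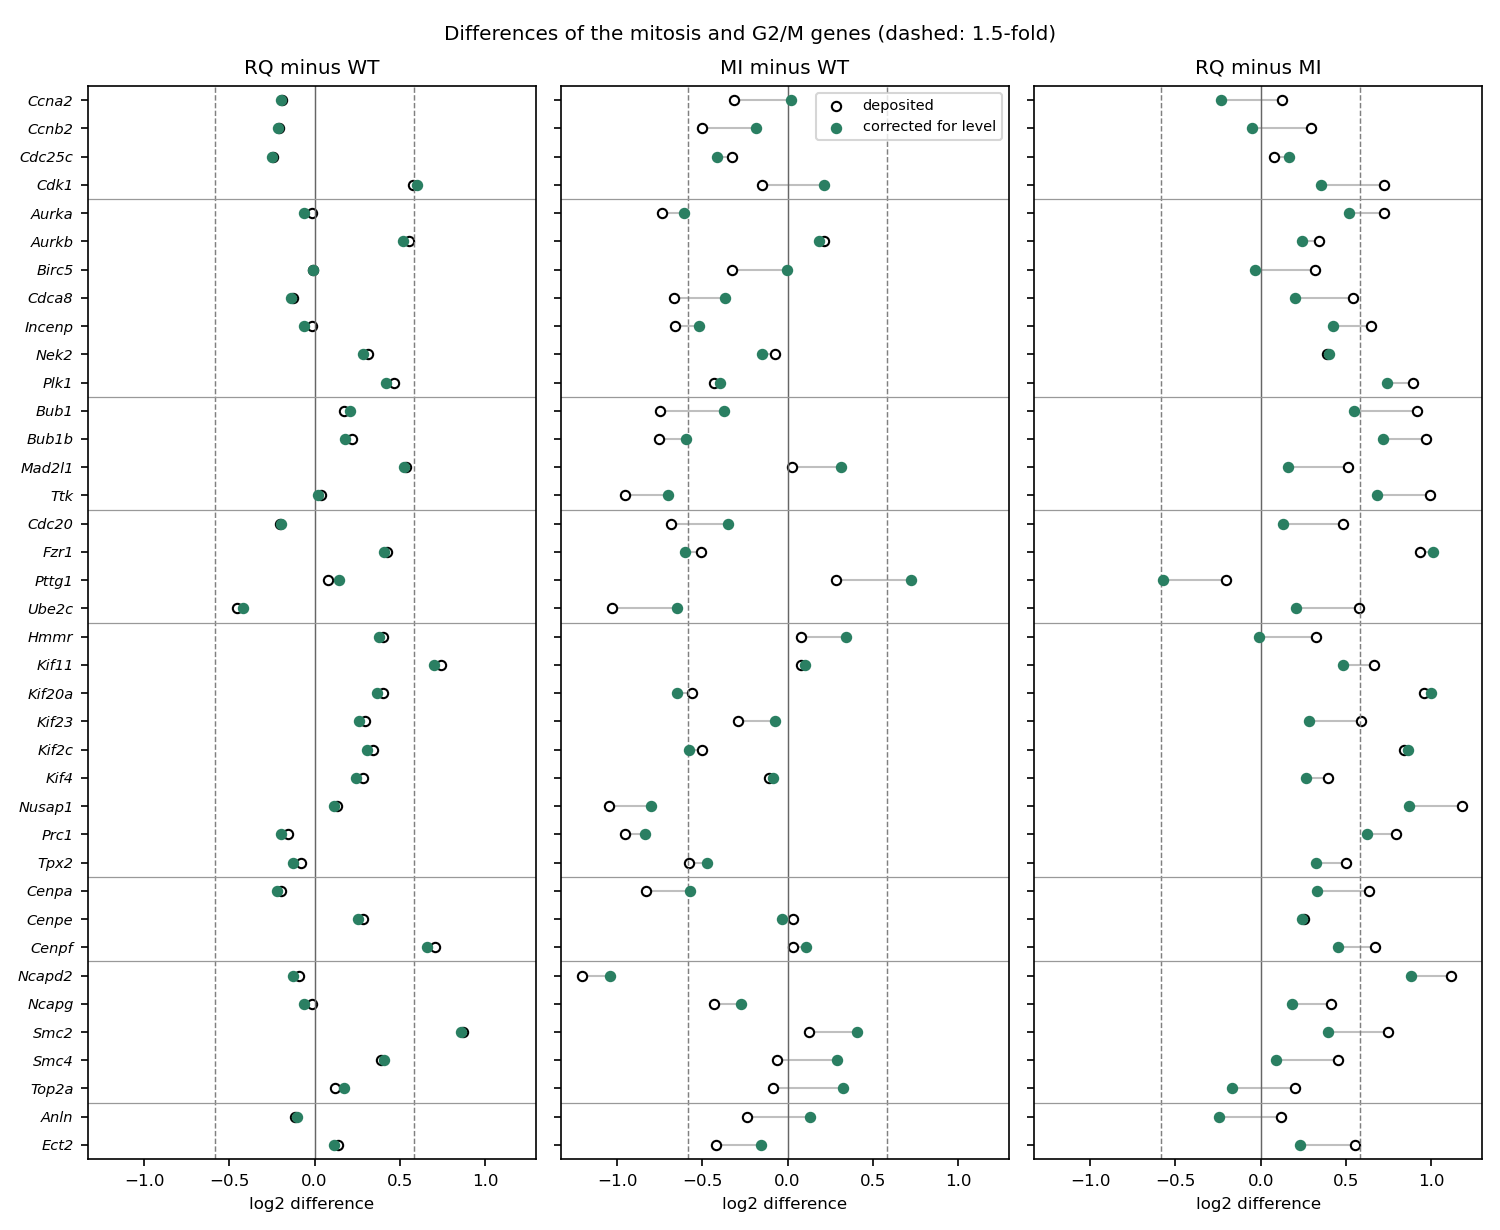
Difference of log2 signal (x axis) of each mitosis and G2/M gene (rows, in the order and role groups of the plot of levels) for RQ minus WT, MI minus WT and RQ minus MI. Open circles are deposited differences, filled circles are corrected for level, and dashed lines mark 1.5-fold. In MI minus WT 9 filled circles lie left of the lower limit and 1 lies right of the upper one, and in RQ minus MI 9 lie right of the upper limit.

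By role, the cyclins, Cdk1 and its activator all lay below WT in MI as deposited (median -0.32), against 42% of all genes. Their corrected median was -0.08. Cdk1 read 10.83 in RQ, 10.10 in MI and 10.25 in WT, Ccnb2, a B-type cyclin, 9.70, 9.40 and 9.90, and Ccna2, the cyclin A of S phase and G2, 9.84, 9.71 and 10.03. Cdc25c read 6.85 in RQ, 6.77 in MI and 7.09 in WT. The corrected MI minus WT differences of the 4 genes ran from -0.42 (Cdc25c) to 0.21 (Cdk1), and none was past 1.5-fold. In RQ, 3 of the 4 lay slightly below WT, against 48.1% of all genes, and Cdk1 lay above it.

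Among the kinases and the chromosomal passenger complex, 6 of 7 genes were below 0 in corrected MI minus WT (median -0.37), against 50.7% of all genes. Aurka read 8.62 in RQ, 7.90 in MI and 8.63 in WT. Incenp, the scaffold of the passenger complex, read 8.65, 8.0 and 8.67 in RQ, MI and WT, and Cdca8, its subunit borealin, 9.68, 9.14 and 9.81. Their corrected MI minus WT differences were -0.52 and -0.37. The passenger complex was not of 1 kind, because Birc5, its subunit survivin, was at -0.00 after correction (9.92 in RQ, 9.60 in MI and 9.93 in WT). Aurkb, the kinase of the complex, was at 0.18, with 7.96 in RQ, 7.62 in MI and 7.40 in WT. Nek2, a kinase of centrosome separation, read 7.57, 7.18 and 7.26.

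The spindle checkpoint genes split in the same way. Bub1, a kinetochore kinase, read 10.89 in RQ, 9.98 in MI and 10.72 in WT, and Bub1b 9.01, 8.04 and 8.79. With Ttk they lay lowest on the MI array, although the corrected MI minus WT difference of Bub1 (-0.37) was short of 1.5-fold. Mad2l1, which encodes the checkpoint protein that inhibits Cdc20, read 9.89 in RQ, 9.37 in MI and 9.35 in WT, a corrected MI minus WT difference of 0.32. The group's RQ minus MI median of 0.61 was the highest of the 8 role groups, against 0.30 for all members.

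Cdc20, the activator of the APC/C in metaphase, read 9.98 in RQ, 9.50 in MI and 10.18 in WT. Its MI minus WT difference was -0.69 as deposited and -0.35 after correction. Of the spindle genes, 7 of 9 were below 0 in corrected MI minus WT (median -0.47), against 50.7% of all genes. In RQ minus WT 7 of 9 were above 0 (median 0.29), against 51.9%. Kif2c read 7.75 in RQ, 6.91 in MI and 7.41 in WT, and Tpx2, which activates Aurora A on the spindle, 8.36, 7.86 and 8.44. Kif23, the kinesin of the centralspindlin complex, read 9.24, 8.66 and 8.95, and Kif4, a chromosome-bound kinesin, 8.11, 7.71 and 7.82. Hmmr, a microtubule-binding protein of the spindle, was highest in RQ (9.49) with 9.16 in MI and 9.09 in WT. So Hmmr and Kif11 did not share the low MI values of Prc1, Nusap1 and Kif20a.

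Centromere genes likewise differed among themselves. Cenpa read 9.29 in RQ, 8.65 in MI and 9.48 in WT, whereas Cenpe, a kinesin that moves chromosomes to the spindle equator, read 7.59, 7.34 and 7.30. The condensin genes did not stand together on the MI array. Smc2 and Smc4, the ATPase subunits, were at 0.41 and 0.29 in corrected MI minus WT, while the condensin I subunits Ncapd2 and Ncapg were at -1.04 and -0.27. Ncaph, another subunit of condensin I and not a member of the set, was at 0.31. Smc4 read 10.48 in RQ, 10.03 in MI and 10.09 in WT, and Ncapg 8.60, 8.19 and 8.62. Top2a, the topoisomerase that untangles sister chromatids, was among the closest across the arrays, at 11.18, 10.98 and 11.06. The cytokinesis genes Ect2, an activator of the GTPase RhoA (9.47 in RQ, 8.91 in MI and 9.33 in WT), and Anln (10.28, 10.16 and 10.40) were at -0.15 and 0.13 in corrected MI minus WT.

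Other probe sets of the same gene give a measure of error within an array, though not between samples. Over 4313 genes with at least 2 probe sets past the filter, the deposited MI minus WT differences of the brightest and the second probe set were apart by a median of 0.19, and by 0.56 at the 90th percentile. For RQ minus WT these gaps were 0.18 and 0.65. Among the 24 mitotic genes with such a second probe set, its sign was that of the first in 21 for MI minus WT, 13 for RQ minus WT and 19 for RQ minus MI. The shares over all genes were 73.0%, 66.3% and 72.5%. The second probe set thus had the sign of the first more often for MI minus WT than for RQ minus WT, in the mitotic genes as over all genes. All these signs are of deposited differences. Those that involve MI carry its trend with level, so they are no check of the corrected differences.

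Several leading genes had a second bright probe set with a like order. That of Prc1 read 8.09 in RQ, 7.35 in MI and 8.13 in WT, and that of Bub1b 8.79, 7.56 and 8.61. The other 2 probe sets of Kif11 read 7.71 and 7.71 in RQ, 7.07 and 6.87 in MI, and 6.90 and 6.86 in WT. The second probe sets of other leading genes had less signal, and those of Nusap1, Ttk and Cenpf had another order. For Nusap1 it read 6.66 in RQ, 6.94 in MI and 6.73 in WT, and for Ttk 6.75, 6.63 and 7.56. For Ncapd2 it lay below the level filter and read 6.0 in RQ, 5.99 in MI and 6.36 in WT. In those of Ttk and Ncapd2 MI was still lowest, but RQ lay near MI and not near WT. Cenpf was higher in RQ in the probe set used and not in the next brightest, which read 6.73, 6.78 and 6.76. The second probe set of Smc2 kept its order but differed by only 0.23 between RQ and WT (7.28 in RQ, 7.08 in MI and 7.05 in WT). Pttg1 had a second bright probe set with MI highest (10.32, 10.60 and 10.20), but the dimmest of its probe sets read 6.46, 6.80 and 7.22. Ube2c, Kif20a, Fzr1, Plk1, Cdk1 and Mad2l1 had 1 probe set each, so their values have no such check.

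Many mitotic promoters carry a CHR, the cell cycle homology region bound by the MuvB complex, together with CCAAT boxes bound by NF-Y. Both elements were searched as plain letters on both strands of RefSeq promoter windows (build GRCm38.p6), which run from 250 bases before to 50 after an annotated transcription start. The letters were TTTGAA or TTCGAA for the CHR core and CCAAT for the CCAAT box. Windows were found for 32 of the 39 genes. A CHR core lay in 24 of them (75%), against 21.7% of all 27025 genes with a window, and a CCAAT box in 26 (81.2%), against 41.1%. Both lay in 22 (68.8%), against 8.61% of all genes. Within the members' windows, 1 motif overlapped another kind. A match of letters is a description and not a binding site.

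**Figure D4:**
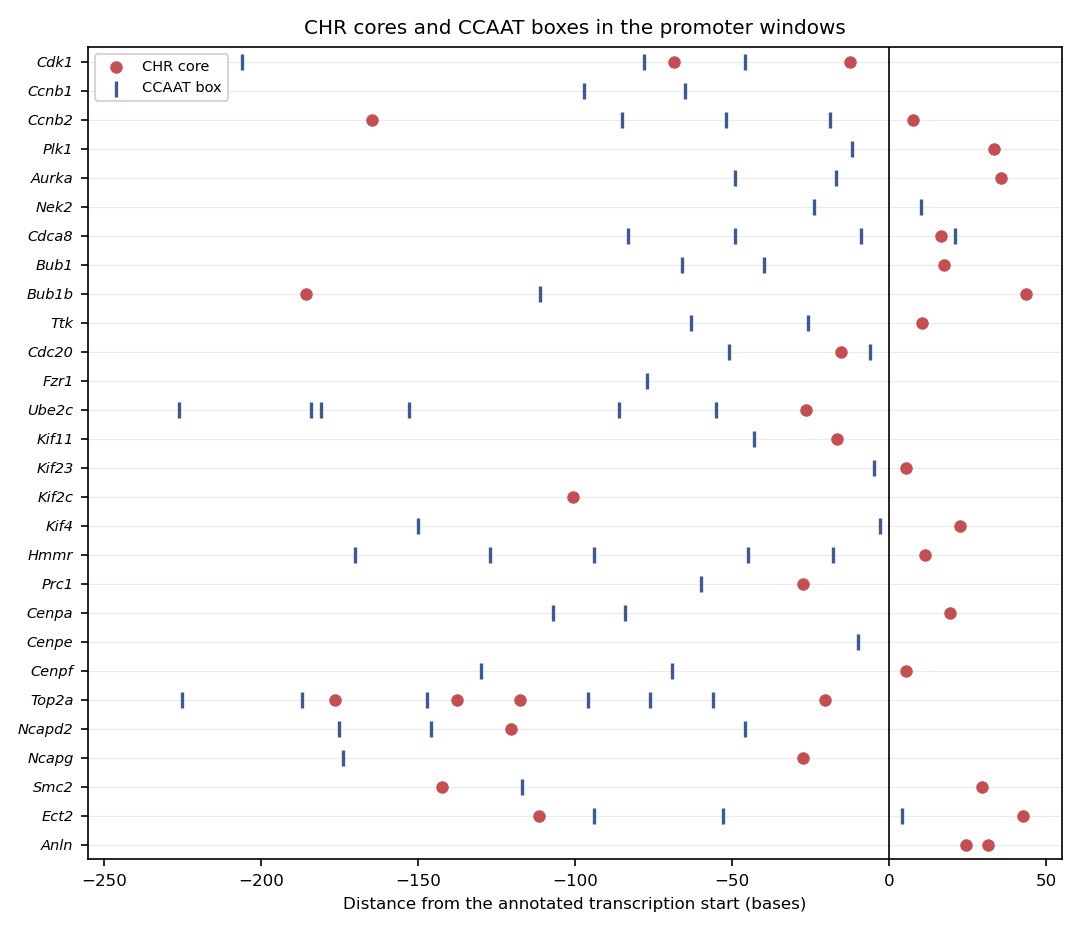
Positions of CHR cores (red circles) and CCAAT boxes (blue bars) in the promoter windows of the 28 mitosis and G2/M genes with either motif, in bases from the annotated start (x axis, the black line marks the start). For genes with 2 annotated starts the window with the higher coordinate is shown. Most genes carry blue bars before the start, and 22 genes of the 32 with a window hold both motifs.

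The 250 bases before the start are printed for 4 genes of both kinds of order, so that the layout of the elements can be seen. They are the measured genes with the largest difference in any comparison whose CHR core and CCAAT box both lie before the start. Ncapd2 and Prc1 were lowest in MI, and Smc2 and Kif11 highest in RQ. Each is written 5′ to 3′ on the gene's strand and ends at the base before the start, and capitals mark CHR cores, CCAAT boxes (ATTGG on the other strand) and, at the end of the Ncapd2 sequence, an E2F site. Ncapd2 lies at chr6:125191587-125191836 on the minus strand, Prc1 at chr7:80294226-80294475, Smc2 at chr4:52438971-52439220 and Kif11 at chr19:37376132-37376381, all 3 on the plus strand.
Ncapd2: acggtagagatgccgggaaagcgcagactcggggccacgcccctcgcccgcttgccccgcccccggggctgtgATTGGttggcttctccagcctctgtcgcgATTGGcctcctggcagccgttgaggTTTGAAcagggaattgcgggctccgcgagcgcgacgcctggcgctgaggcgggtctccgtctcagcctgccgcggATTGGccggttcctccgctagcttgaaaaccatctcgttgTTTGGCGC
Prc1: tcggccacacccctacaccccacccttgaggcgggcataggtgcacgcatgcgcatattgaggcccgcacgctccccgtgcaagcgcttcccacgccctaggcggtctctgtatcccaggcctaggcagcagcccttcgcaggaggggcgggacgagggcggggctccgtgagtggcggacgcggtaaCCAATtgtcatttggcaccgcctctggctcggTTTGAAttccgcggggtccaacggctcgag
Smc2: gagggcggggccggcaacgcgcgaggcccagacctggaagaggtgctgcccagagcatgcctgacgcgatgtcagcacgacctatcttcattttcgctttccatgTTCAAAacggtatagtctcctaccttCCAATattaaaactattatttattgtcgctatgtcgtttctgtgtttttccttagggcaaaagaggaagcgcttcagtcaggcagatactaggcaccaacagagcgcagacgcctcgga
Kif11: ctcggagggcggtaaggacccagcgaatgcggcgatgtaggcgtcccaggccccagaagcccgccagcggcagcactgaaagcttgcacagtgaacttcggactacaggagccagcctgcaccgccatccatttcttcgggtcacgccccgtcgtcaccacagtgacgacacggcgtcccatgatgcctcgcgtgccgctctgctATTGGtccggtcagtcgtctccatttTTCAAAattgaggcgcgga
In Kif11 the CCAAT box began 45 bases and the CHR core 19 bases before the start, and in Prc1 they began 62 and 30 bases before the downstream one of its 2 annotated starts. In Ncapd2 the 3 CCAAT boxes began 177, 148 and 48 bases and the CHR core 123 bases before the start, and in Smc2 the CHR core began 145 and the CCAAT box 119 bases before it. The choice of these genes required both elements before the start, so their presence in all 4 is no finding. Nusap1, among the lowest in MI, had neither motif in its window, nor had Birc5, Mad2l1 and Pttg1.

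Other genes of the pathway were read from lists of regulators and partners. Of 13 cell cycle transcription factors past the filter, 1 lay at least 1.5-fold below WT in MI after correction, and 3 lay at least 1.5-fold above WT in RQ (6.33% and 6.89% of all genes did). Mybl2, the B-Myb factor that works with MuvB at mitotic promoters, read 9.50 in RQ, 8.01 in MI and 9.02 in WT, a corrected MI minus WT difference of -0.84. Lin54, the MuvB subunit that binds the CHR, read 7.41, 6.86 and 6.57, and Tfdp1, the partner of E2F factors, 9.84, 9.25 and 9.03. Nfyc, a subunit of NF-Y, was at 0.61 in RQ minus WT. The list's medians were 0.21 in RQ minus WT and -0.02 in corrected MI minus WT.

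Cohesin and its regulators had a median below 0 in MI minus WT and above 0 in RQ minus MI. All 13 genes were above 0 in deposited RQ minus MI, against 45.7% of all genes, 11 of them at least 1.5-fold, against 10.1%. After correction 12 were above 0 and 4 past 1.5-fold (median 0.54), against 50.7% and 6.68% of all genes. In corrected MI minus WT 4 were at least 1.5-fold lower and 1 higher (median -0.21), against 6.33% and 2.71% of all genes. In RQ minus WT 4 were higher (median 0.34), against 6.89%. Cdca5, which encodes sororin, a protector of cohesion, read 8.82 in RQ, 7.98 in MI and 9.31 in WT. Sgo1, shugoshin, which guards centromeric cohesion, read 7.69, 6.85 and 7.55. Smc3, a core cohesin subunit, read 10.05, 8.82 and 9.23, while Rad21, the subunit cut by separase, was higher than WT on both mutant arrays (10.04 in RQ, 9.69 in MI and 9.36 in WT).

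Other kinetochore genes had medians of -0.07 in corrected MI minus WT and 0.16 in RQ minus WT. Of the 26, 3 were at least 1.5-fold lower and 1 higher in corrected MI minus WT, and 4 were higher in RQ minus WT. The shares of all genes were 6.33%, 2.71% and 6.89%. Cenpp, a subunit of the inner kinetochore, read 7.55 in RQ, 6.37 in MI and 7.52 in WT, and Zwint, an outer kinetochore protein, 8.70, 8.29 and 7.72. Of 32 other spindle and cytokinesis genes, 2 were lower in corrected MI minus WT, Bora (-1.08), which helps Aurora A activate Plk1, and Sgo1, and 4 were higher in RQ minus WT, including Cep55 (0.80), a midbody protein, and Kif20b (0.78), against the same 6.33% and 6.89% of all genes. Bora was also the only gene of that list past 1.5-fold below WT in RQ (-0.69), against 4.3% of all genes.

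In the APC/C list, 2 of 14 genes stood past 1.5-fold above WT on both mutant arrays and none below it. Of all genes 6.89% stood above it in RQ and 2.71% in MI after correction, each array taken alone, and 4.3% and 6.33% stood below. As deposited, 97 of 11969 genes stood above it on both arrays. Anapc10, an APC/C subunit that helps bind substrates, read 8.62 in RQ, 8.58 in MI and 7.34 in WT, and Cdc27, a scaffold subunit, 7.70, 7.57 and 6.85. None of the 4 other condensin genes was past 1.5-fold against WT in either mutant. Of 13 G2 brakes and phosphatases, Gadd45a (0.81) and Chek2 (0.68), both DNA damage response genes, stood above WT in RQ, and Ensa, an inhibitor of the phosphatase PP2A, was lower in corrected MI minus WT (-0.64), counts of 2 and 1 against 6.89% and 6.33% of all genes. Ensa also lay below WT in RQ, at -0.50, short of 1.5-fold. Of 23 S phase genes, 6 stood past 1.5-fold above WT in RQ (median 0.32), against 6.89% of all genes. In corrected MI minus WT 4 were higher and 4 lower (median 0.21), against 2.71% and 6.33% of all genes. After correction the S phase list thus did not show the low MI median of the mitotic genes. As deposited its MI minus WT median was -0.10, against 0.05 for all genes and -0.42 for the members. Of the 23, 14 were then below 0, against 42% of all genes.

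**Figure D5:**
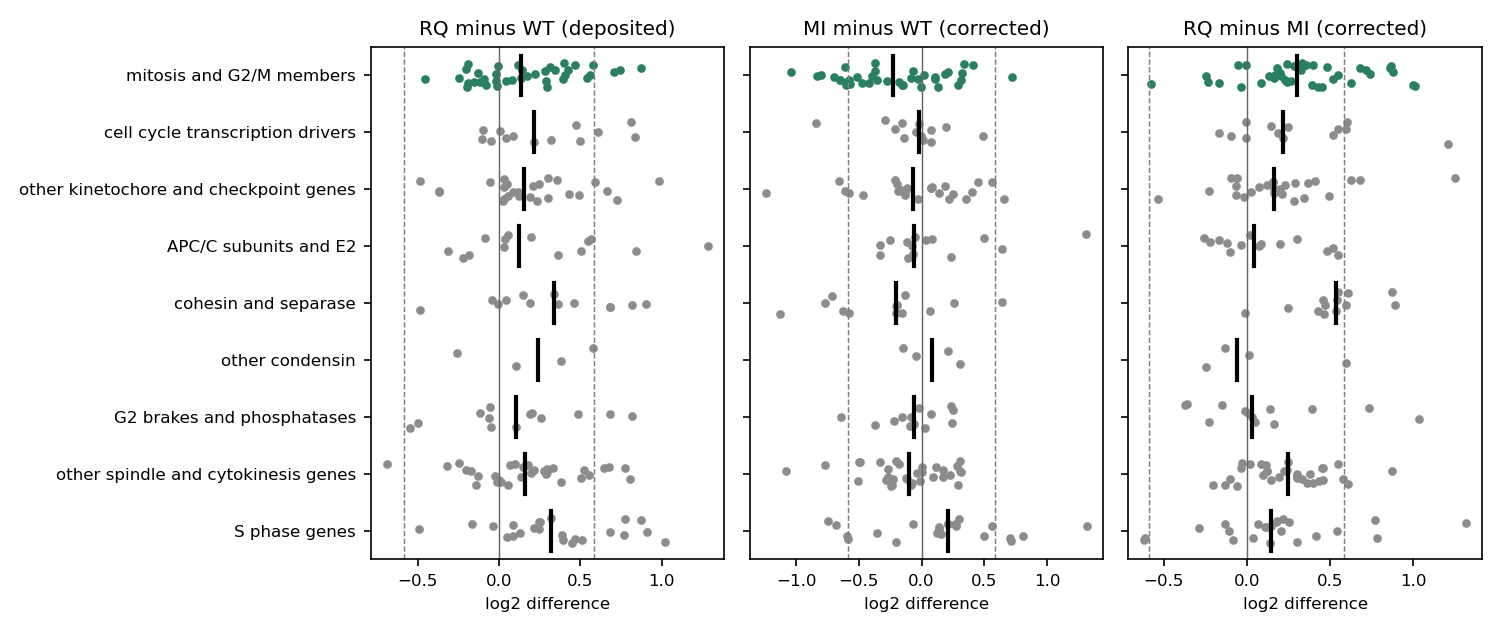
Difference of log2 signal (x axis) of each gene past the filter in the mitosis and G2/M set (green) and in 8 lists of other cell cycle genes (grey), with black bars at the medians and dashed lines at 1.5-fold. RQ minus WT is as deposited, and the others are corrected for level. In MI minus WT the members' median lies at -0.23 and that of cohesin at -0.21, and in RQ minus MI they lie at 0.30 and 0.54.

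The bodies also differed in the markers of cell types they held. Of the 15 markers of extraembryonic endoderm past the filter, 11 stood past 1.5-fold below WT in RQ, and 11 in MI after correction. Of all genes 4.3% and 6.33% did. Some of these markers, such as Cubn (6.09 in RQ, 6.08 in MI and 10.67 in WT), passed the filter only through the WT array. The counts are thus partly set by the filter. Gata6 and Sox17, transcription factors of endoderm, were at -0.09 and -0.26 in RQ minus WT. The log2 of the list's summed signal over its 17 genes was 11.29 in RQ, 11.45 in MI and 14.21 in WT. Over 12 fibroblast and mesenchyme genes it was 10.03 in RQ, 12.42 in MI and 10.19 in WT. Of the 9 past the filter, 6 were at least 1.5-fold higher in MI than in WT after correction, against 2.71% of all genes. Some of these, such as S100a4 (5.93 in RQ, 9.33 in MI and 6.02 in WT), passed the filter only through the MI array. Over 12 pluripotency genes the log2 of the summed signal was 15.09 in RQ, 14.45 in MI and 14.48 in WT. The sums of all lists are of deposited signals, without the level correction. After correction, 5 of the 12 pluripotency genes were at least 1.5-fold higher in MI than in WT and 1 was lower (median 0.33). The shares of all genes were 2.71% and 6.33%. In RQ minus WT as deposited, 9 of the 12 were at least 1.5-fold higher and 0 lower (median 1.23), against 6.89% and 4.3% of all genes. The summed signals of primitive streak, neural, blood and endothelial, and heart markers ranged from 8.40 to 9.23 over the 3 arrays, with 2 genes of each list past the filter. The part of these cell types in the mitotic differences was not tested. The Brca1 probe sets are designed on the mouse gene, so they gave no check of the labelled BRCA1 alleles.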

How the data were processed

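The deposited values are log2 signals of 45101 probe sets on 3 arrays. Per the labels' protocols, biotin-labelled cRNA was made from 6 ug of total RNA. The submitters' processing notes name Partek and RMA, with no version or order. RMA subtracts background, makes arrays alike in distribution and summarises probes. Whether they were normalized with other arrays is unstated in these sources. Signals near background are compressed, so differences of dim genes understate true ratios. Scanner files and scan dates were not used here.

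Gene names came from the platform annotation supplied with the series: 34958 had 1 gene symbol, 932 several and 9211 none. The 64 control probe sets were left out. Entrez identifiers of the 38 measured genes matched RefSeq (GRCm38.p6), and 0 symbols changed. The lowess correction (span 0.3, 3 robustness iterations, statsmodels 0.14.6, Python 3.11.15) used all 18193 genes and the mean level of the 2 arrays, and was tested on simulated data. The level filter was log2 6.31 and a call was 1.5-fold. With 1 array per genotype there is no test and no p-value, and precision is limited by the number of arrays.

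The genes, lists, limits and tests were chosen with earlier results of these data known. All measured members are named. Of each other list of pathway genes, the named ones are among up to 4 per comparison with the largest difference past 1.5-fold. The order of the 3 arrays after correction, the second probe sets that are quoted, Gata6, Sox17 and Ncaph, and the rule that printed motifs lie before the start were chosen after values were seen. Alternatives tried were other corrections, scalings, filters, probe set rules and fold limits.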

Additional observations from a re-analysis of the deposited data

How the results depend on the processing

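The cause of each change below was not tested. Counts below that have no share of all genes beside them are not read as results about the members. With the members' deposited values in place of corrected ones, the MI minus WT median was -0.42 with 0 genes at least 1.5-fold higher, and the RQ minus MI median was 0.56 with 18 higher. The shares of all genes for these counts were 1.96% and 10.1%. With the mean of all probe sets of a gene, 1 gene was higher in RQ minus WT, against 4.69% of all genes. MI minus WT then had a median of -0.11 with 4 genes lower and 0 higher, and RQ minus MI a median of 0.19 with 3 higher and 1 lower. Of all genes 4.39% were lower and 2.22% higher in MI minus WT at this setting. With the second probe set, which passes the filter in 24 of the genes, RQ minus WT had 1 gene higher and 2 lower. Of all genes 7.86% and 5.4% were. MI minus WT had a median of -0.11 with 5 lower, and RQ minus MI a median of 0.16 with 1 higher and 1 lower. The second probe set turned the direction of Cenpf in RQ minus WT (-0.04), of Aurka (0.03, in a probe set below the filter) and Nusap1 (0.17) in MI minus WT and of Nusap1 in RQ minus MI (-0.25). Without probe sets whose suffix marks possible cross-hybridization or shared transcripts, 31 members were past the filter. Of these, 3 were lower in RQ minus WT, against 3.82% of all genes. The MI minus WT median was then -0.34 with 0 higher, against 2.66% of all genes, and Pttg1 was at -0.51. Repeated quantile normalization gave 1 lower gene in RQ minus MI. At a limit of 0.32 on the log2 scale, 12 were higher and 1 lower in RQ minus WT, 4 higher and 18 lower in MI minus WT, and 19 higher and 1 lower in RQ minus MI. In the same sequence, the shares of all genes were 16.1% and 9.77%, 9% and 15.7%, and 17.1% and 8.21%. At 2-fold, 0 were higher in RQ minus WT, 0 higher and 1 lower in MI minus WT, and 2 higher in RQ minus MI. The shares of all genes were 1.7%, then 0.643% and 1.85%, and 1.22%. The other 82 recomputed medians and counts moved by less than 0.1, or less than 1.5 times for a count. No paired analysis was possible because each genotype has 1 array, and for the same reason no replicate could be left out.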

Other observations

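In probe sets past the level filter that were not the brightest of their gene, WT stood at least 1.5-fold above both mutants in 308 of 6680 (4.61%) and below both in 36. Among the 11969 probe sets used, 388 stood above (3.24%) and 97 below. Of 39 such unused probe sets of the mitotic genes 3 stood above (7.69%, against 4.61% of all unused ones). They were those of Hmmr (6.21 in RQ, 6.43 in MI and 7.18 in WT), Top2a (7.84, 7.82 and 8.49) and Ttk (6.75, 6.63 and 7.56). None of the probe sets used for the 38 genes stood above, against 3.24% of all used ones.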
